A study of Mus musculus with 12 samples.

Results

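The 10 genes described here encode integrin subunits that leukocytes are known to use: Itgal, Itgam, Itgax and Itgb2, then Itga4, Itgb7 and Itgae, and finally Itgb1, Itga5 and Itga6. They were picked out of the table by gene symbol, a rule that uses no measured value, although the list was drawn up with earlier results of these data known. All 10 were found among the 37775 genes of the expression table. All 10 also passed the expression filter by fraction, which left 22118 genes to be tested. Itgae had the most counts in the classical monocyte libraries (74, 144 and 82), and those of resident-like macrophages (15, 32 and 22) were also enough to pass this filter.

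The libraries came from ear skin of wild-type (WT) BALB/c mice with IgE-mediated chronic allergic inflammation (IgE-CAI), taken 5 days after antigen challenge. All mice were young adult males that carried no engineered allele in this experiment, and all received 300 μg of IgE specific to the hapten TNP intravenously and 10 μg of TNP-coupled ovalbumin in the ear skin. Mo-Macs, cells of the monocyte and macrophage lineage, were sorted by FACS into Ly6ChiPD-L2lo classical monocytes, Ly6ChiPD-L2hi early CMDMs (classical monocyte-derived macrophages), Ly6CloPD-L2hi late CMDMs and Ly6CloPD-L2lo resident-like macrophages, with 3 libraries per fraction. RNA of 5000 to 80000 cells was lysed for a library and captured with oligo(dT). The labels do not state whether the 3 libraries of a fraction came from separate mice, so that p-values measure only the spread between these libraries, which may be technical. CD11b, the protein product of Itgam, belonged to the markers by which the study defined Mo-Macs, so every fraction was gated on it. The gate also required CD45, the pan-leukocyte surface protein, which keratinocytes, endothelial cells and fibroblasts lack, and left out cells with SiglecF or Ly6G. There was no fraction from unchallenged skin.

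Integrins are adhesion receptors made of an α and a β subunit, and a subunit reaches the cell surface only with a partner. The β2 subunit pairs with αL, αM or αX, and these receptors hold leukocytes to ICAMs on endothelium or bind complement fragments and fibrin. The α4 subunit pairs with β1 or β7 and binds VCAM-1 and MAdCAM-1, αE pairs with β7 and binds E-cadherin on epithelial cells, α5β1 binds fibronectin, and α6 binds laminin with β1 or, in keratinocytes, with β4.

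Values are CPM, counts scaled to library size, after TMM normalization, a method built on the assumption that most genes are unchanged, and are given as the mean ± SD of 3 libraries. Total counts ranged from 12537178 to 19844113 per library, at which 3 counts, the limit set here for detection, equalled 0.151 to 0.239 CPM. This limit covers counting error only. Genes were called at an adjusted p under 0.05 in the quasi-likelihood test of edgeR with Benjamini-Hochberg adjustment over all tested genes. The 7 Mo-Mac markers (Ptprc, Csf1r, Adgre1, Cd68, Lyz2, Fcgr1 and Cd14) were above the detection limit in every fraction, with a summed level of 2538 to 3656 CPM in early CMDMs and 6141 to 11000 CPM in the other fractions. Lyz2 held most of this sum, at 1764 ± 217 CPM in early CMDMs and 5811 ± 1152 CPM in classical monocytes. Between these 2 fractions, 4 of the 7 were called as lower in early CMDMs, against 20.6% of all genes, and 3 were not called. Csf1r was 392 ± 104 CPM in early CMDMs and 395 ± 123 CPM in classical monocytes. From early to late CMDMs 6 of the 7 rose, against 14.4% of all genes. A list of 12 pan-leukocyte genes, which includes Spi1, the gene of the myeloid transcription factor PU.1, served as a measure of leukocyte RNA. Its summed level was lowest in early CMDMs, at 2221 ± 530 CPM, followed by late CMDMs at 4090 ± 326 CPM, resident-like macrophages at 5971 ± 110 CPM and classical monocytes at 6051 ± 272 CPM. Every comparison was therefore also computed with libraries scaled to the sum of these 12 genes, called the leukocyte scale below. The 12 genes did not all move together. On this scale, early CMDMs were called as higher than classical monocytes for 3 of the 12 and as lower for 4. For late CMDMs against classical monocytes, these counts were 3 and 5. By TMM, mean Ptprc dropped from 726 (classical) to 114 CPM (early CMDM), and Arpc1b from 818 to 431 CPM. A call on this scale is relative to the sum, and change per leukocyte was not tested. In bulk libraries, fewer cells of a type and less RNA per cell cannot be told apart. Against TMM, the leukocyte scale moved the median log2 fold change of all genes by 1.48 in early CMDMs against classical monocytes, by -0.91 in late against early CMDMs, by 0.57 in late CMDMs against classical monocytes and by -0.55 in resident-like macrophages against late CMDMs. It moved that median by 0.02 in resident-like macrophages against classical monocytes and by -1.46 against early CMDMs.

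The level of all 10 genes differed among the 4 fractions by the test of the 3 contrasts together, which called 60.8% of all tested genes. On the leukocyte scale this test called 9 of the 10, and Itgam had an adjusted p of 0.0909 by edgeR. The share of all genes called by this test on the leukocyte scale was not counted, so the 9 of 10 cannot be set against it. The gene with the widest range of fraction means was Itgal, at 3.54 on the log2 scale, followed by Itgax at 3.10 and Itgae at 3.02. Itgb1 had the narrowest range, at 0.53.

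In early CMDMs against classical monocytes, Itga6 rose and 8 of the 10 genes fell, while Itgb1 was not called. Of all tested genes, 24.2% rose and 20.6% fell in this comparison. The median log2 fold change was -1.68 over the 10 genes and -0.01 over all tested genes. On the leukocyte scale 3 of the 10 rose (Itga6, Itgb1 and Itga5) against 86.9% of all genes, and 4 fell (Itgal, Itga4, Itgb7 and Itgae) against 2.68% of all genes. From early to late CMDMs 5 of the 10 rose (Itgam, Itgb2, Itga4, Itgb1 and Itga5), against 14.4% of all genes, and Itga6 fell, against 17.5%. None of the 10 rose on the leukocyte scale in that comparison, where 0.796% of all genes did, and 5 fell (Itgal, Itgax, Itgb7, Itgb1 and Itga6), against 70% of all genes. In late CMDMs against classical monocytes, Itgb1 and Itga6 rose and 7 of the 10 fell, against 18.1% and 17.5% of all genes. On the leukocyte scale 3 rose there (Itgb1, Itga6 and Itgam), against 45.7% of all genes, and 6 fell, against 6.1%.

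Resident-like macrophages held more of 6 genes (Itgal, Itgax, Itgb2, Itga4, Itgb7 and Itga5) than late CMDMs and less Itga6, against 12.7% and 15.4% of all genes in these directions. On the leukocyte scale 4 were called as higher (Itgal, Itgax, Itga4 and Itgb7), against 3.02% of all genes, and Itga6 and Itgb1 as lower, against 44.9%. Against classical monocytes, Itgax and Itgb1 were higher and Itgal, Itga4, Itgb7 and Itgae were lower in resident-like macrophages, where 10.8% of all genes were called as higher and 12.9% as lower. On the leukocyte scale 1 gene (Itgax) was higher and 3 (Itgal, Itga4 and Itgae) were lower, against 6.91% and 8.85% of all genes. Against early CMDMs, 9 of the 10 were higher and Itga6 was lower, with 21.4% of all genes called as higher and 25.1% as lower. On the leukocyte scale 3 of these were higher (Itgax, Itga4 and Itgb7) and 3 lower (Itgb1, Itga5 and Itga6), against 1.74% and 87% of all genes. The comparisons share libraries and are not independent of each other.

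**Figure D1:**
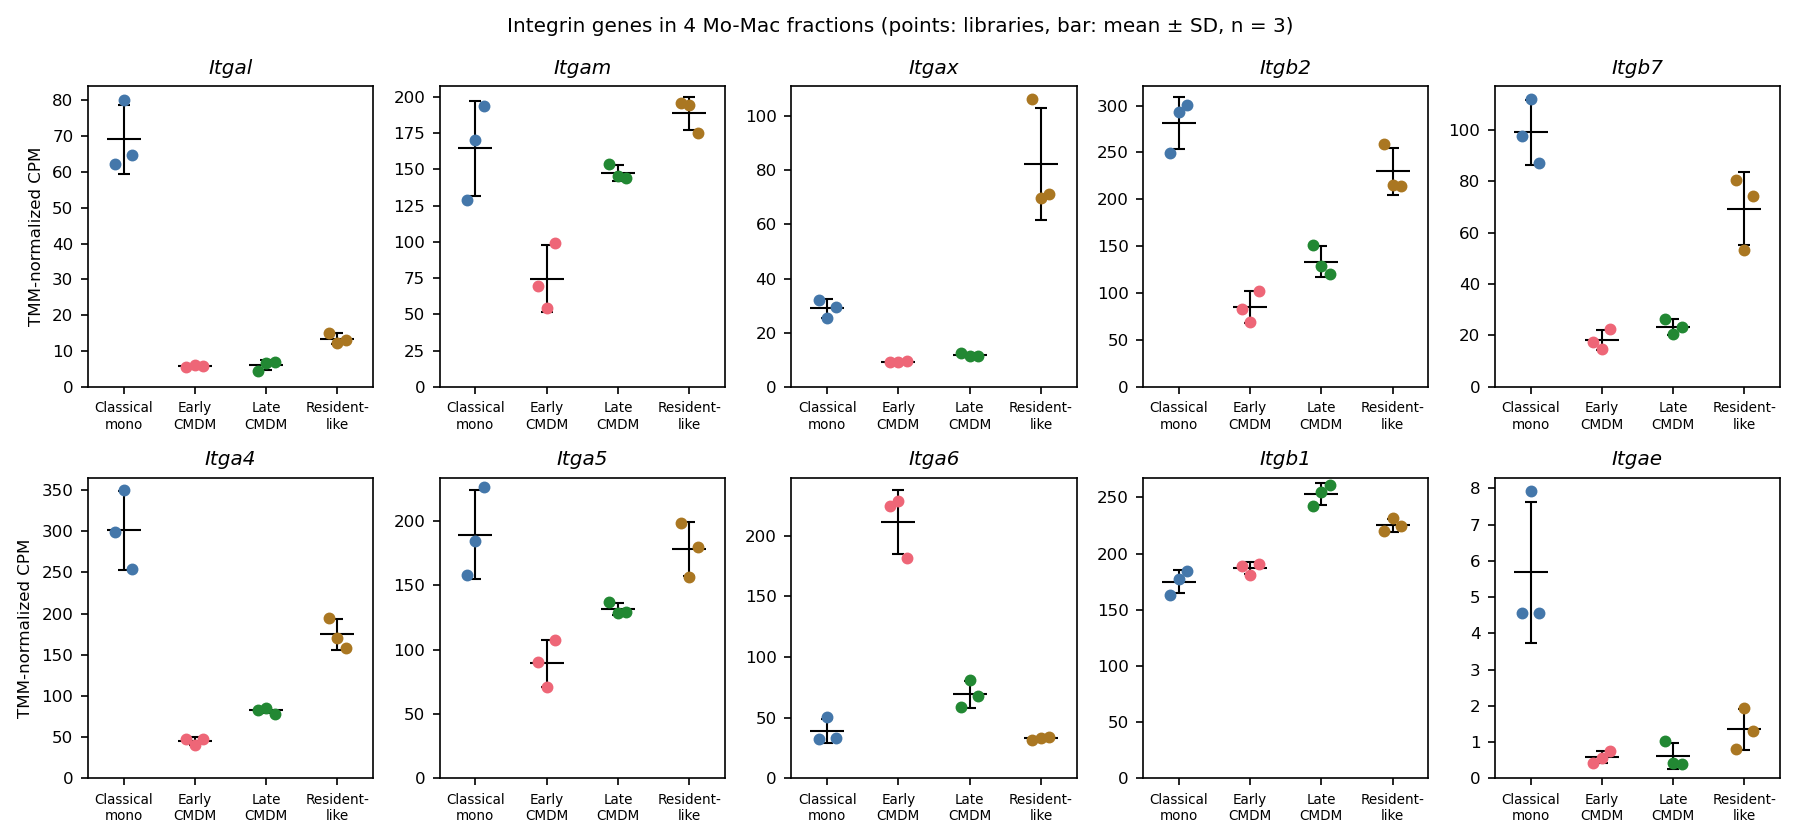
TMM-normalized CPM (vertical axes, linear, from 0) of the 10 integrin genes in 4 Mo-Mac fractions; points are libraries and bars the mean ± SD of 3. Itgal and Itgae are highest in classical monocytes, Itgax in resident-like macrophages and Itga6 in early CMDMs, on the leukocyte scale as well.

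**Figure D2:**
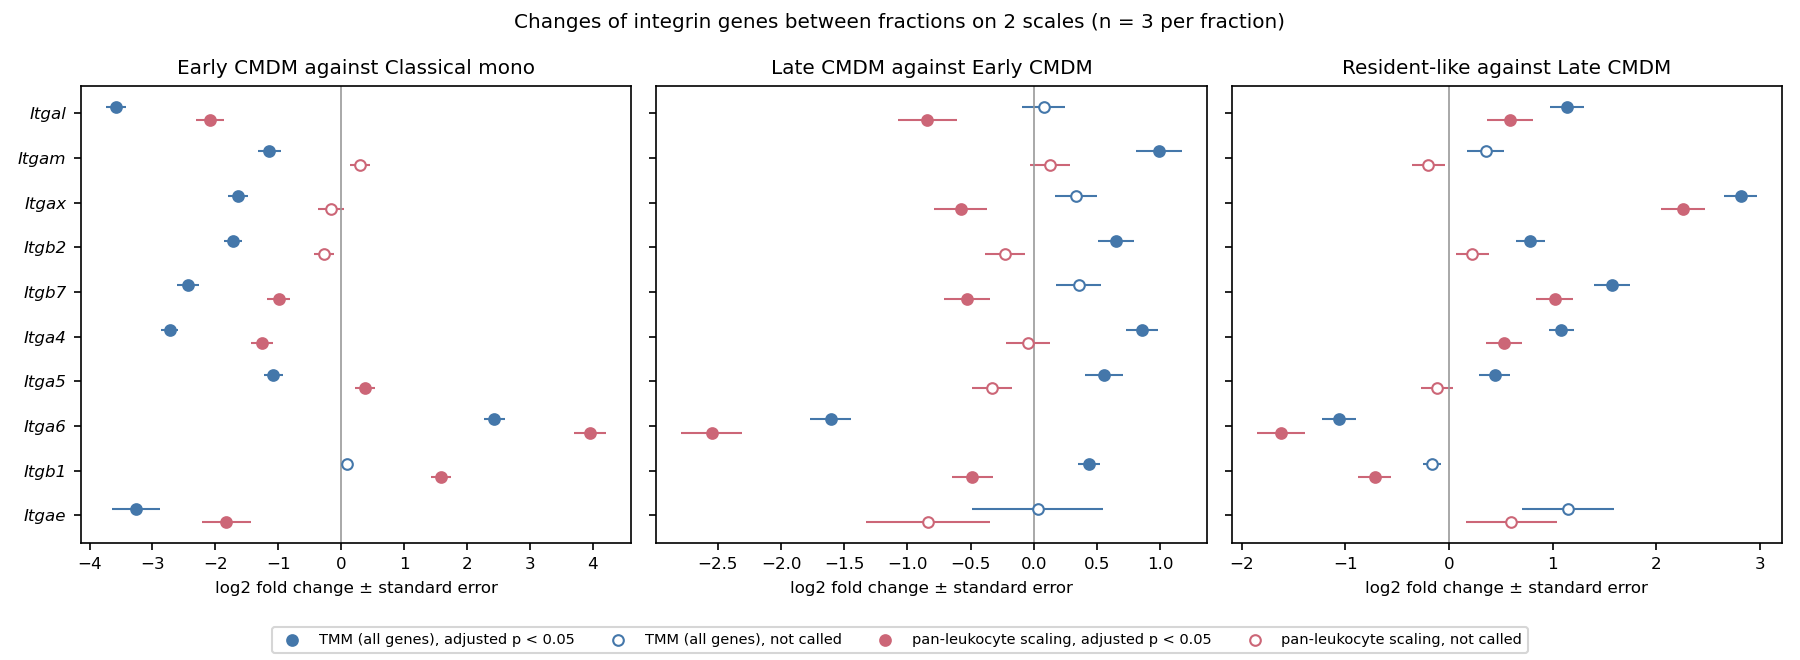
Log2 fold change ± standard error (horizontal axes) of the 10 genes in 3 comparisons of neighbouring fractions, by TMM (blue) and on the leukocyte scale (red), with filled points at an adjusted p under 0.05. Itgam and Itga5 change direction between the scales in early CMDMs against classical monocytes and in resident-like macrophages against late CMDMs. Only Itga6 and Itgam keep their direction from early to late CMDMs. Itga6 is lower in late than in early CMDMs, and lower in resident-like macrophages than in late CMDMs, on both scales.

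Among the β2 integrins, Itgb2, the shared β chain, had 249.2, 294 and 300 CPM in the classical monocyte libraries, 83.3, 69.1 and 103 in those of early CMDMs, 152, 129 and 120 in those of late CMDMs and 259, 216 and 214 in those of resident-like macrophages. Classical monocytes and resident-like macrophages overlapped, and both lay above the CMDM fractions. The fall from classical monocytes to early CMDMs was 3.31-fold (log2 fold change -1.73 ± 0.14, SE, edgeR adjusted p = 8.1e-08), and it was not called on the leukocyte scale (log2 fold change -0.27). The rise from early to late CMDMs by TMM (0.65 ± 0.14, edgeR adjusted p = 0.0019) was -0.23 on the leukocyte scale. Resident-like macrophages and classical monocytes did not differ by the test (-0.29, 95% interval -0.58 to 0.003, edgeR adjusted p = 0.15).

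Itgal encodes the αL chain of LFA-1, which T cells, NK cells and monocytes use to bind ICAM-1. It had 62.4, 80.2 and 64.7 CPM in the classical monocyte libraries, 5.44, 6.13 and 5.76 in those of early CMDMs, 4.46, 6.69 and 7.01 in those of late CMDMs and 15.1, 12.2 and 13.0 in those of resident-like macrophages. All classical monocyte libraries lay far above the others, resident-like macrophages came next, and the CMDM fractions overlapped. On the leukocyte scale late CMDMs were called as lower than early CMDMs (-0.84, edgeR adjusted p = 0.0024). The level fell 11.9-fold from classical monocytes to early CMDMs (log2 fold change -3.58 ± 0.16, edgeR adjusted p = 2.1e-10), and fell on the leukocyte scale as well (-2.09 ± 0.22). It was 2.21-fold higher in resident-like macrophages than in late CMDMs (1.14 ± 0.16, edgeR adjusted p = 6.9e-05), and 0.59 on the leukocyte scale. In the same libraries the 7 T cell markers (Cd3d, Cd3e, Cd3g, Trac, Cd247, Lck and Trdc) summed to 119 to 167 CPM in classical monocytes and to 15.04 to 31.8 CPM elsewhere, and all 7 were called as lower in each other fraction. The 4 NK cell markers (Ncr1, Klrb1c, Eomes and Prf1) summed to 62.3 to 93.1 CPM in classical monocytes and to 3.92 to 10.1 CPM elsewhere. The part of these cells in the Itgal level was not tested.

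Itgam, which encodes the αM chain CD11b of complement receptor 3, had 129, 171 and 194 CPM in the classical monocyte libraries, 69.6, 54.1 and 99.5 in those of early CMDMs, 154, 145 and 144 in those of late CMDMs and 196, 194 and 175 in those of resident-like macrophages. Early CMDMs lay below the other fractions by TMM, and classical monocytes overlapped with both late CMDMs and resident-like macrophages. By TMM the level fell 2.21-fold from classical monocytes to early CMDMs (log2 fold change -1.14 ± 0.18, edgeR adjusted p = 0.00011), but the estimate was 0.29 on the leukocyte scale, in the opposite direction. From early to late CMDMs it rose 1.98-fold (0.99 ± 0.18, edgeR adjusted p = 0.00065), and the estimate was 0.13 on the leukocyte scale, where it was not called. Itgam shared 66.3% of its 50-base windows with the overlapping annotated gene Gm49368, whose counts were 13.0% to 18.4% of those of Itgam, and adding them changed none of the 6 calls for Itgam. Neutrophils also express CD11b, and their 6 markers (Ly6g, Cxcr2, Csf3r, Retnlg, Mmp8 and S100a8) summed to 62.0 to 76.7 CPM in early CMDMs and to 99.8 to 138 CPM elsewhere, with Ly6g, the marker gated out by the sort, at 0 in every library outside classical monocytes. Csf3r made up 54.9 ± 10.5 CPM of the neutrophil sum in early CMDMs and 79.4 ± 6.05 CPM in classical monocytes. Of the 5 neutrophil markers that were tested, 2 were called as lower in early CMDMs than in classical monocytes, and 3 were not called. The part of neutrophils in the Itgam level was not tested.

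Itgax encodes the αX chain CD11c, known from dendritic cells and tissue macrophages. It had 32.2, 25.4 and 29.5 CPM in the classical monocyte libraries, 9.22, 9.11 and 9.56 in those of early CMDMs, 12.7, 11.3 and 11.3 in those of late CMDMs and 106, 69.8 and 71.1 in those of resident-like macrophages. No ranges overlapped, although the neighbouring CMDM fractions did not differ by the test (log2 fold change 0.33, 95% interval -0.02 to 0.69, edgeR adjusted p = 0.14). On the leukocyte scale late CMDMs were called as lower than early CMDMs (-0.58, edgeR adjusted p = 0.017). By TMM the level fell 3.12-fold from classical monocytes to early CMDMs (-1.64 ± 0.16, edgeR adjusted p = 3.9e-07), which was not called on the leukocyte scale (-0.16). Resident-like macrophages held 7.03-fold more Itgax than late CMDMs (2.81 ± 0.16, edgeR adjusted p = 3.8e-09) and 2.84-fold more than classical monocytes (1.51 ± 0.15, edgeR adjusted p = 1.1e-06), at 2.26 and 1.52 on the leukocyte scale. The 8 markers of dendritic and Langerhans cells (Flt3, Zbtb46, Dpp4, Xcr1, Clec9a, Cd207, Epcam and Ccr7) summed to 953 to 1257 CPM in resident-like macrophages and to 162 to 279 CPM elsewhere, and 5 of the 8 were called as higher than in late CMDMs. Cd207, the Langerhans cell lectin, and Epcam made up 819 ± 125 CPM and 219 ± 31.9 CPM of this sum in resident-like macrophages. Against classical monocytes these 2 markers were called as higher and 3 (Flt3, Dpp4 and Clec9a) as lower. The part of these cells in the Itgax level was not tested.

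Itgal, Itgam and Itgax lie on mouse chromosome 7 of GRCm38 in the same orientation, at chr7:127296260-127335138, chr7:128062640-128118491 and chr7:128129547-128150657, with 11.1 kb between Itgam and Itgax. As neighbours with different orders of levels, Itgam and Itgax are shown here with their RefSeq promoters (GRCm38.p6, plus strand, chr7:128062390-128062689 and chr7:128129300-128129599), which hold 250 bases before and 50 after the start of the gene. Promoters were available for 6 of the 10 genes: Itgam, Itgax, Itga4, Itgb7, Itgb1 and Itga5. Capitals mark GAGGAA or its reverse complement TTCCTC, the core of the element bound by PU.1, a myeloid transcription factor.
Itgam: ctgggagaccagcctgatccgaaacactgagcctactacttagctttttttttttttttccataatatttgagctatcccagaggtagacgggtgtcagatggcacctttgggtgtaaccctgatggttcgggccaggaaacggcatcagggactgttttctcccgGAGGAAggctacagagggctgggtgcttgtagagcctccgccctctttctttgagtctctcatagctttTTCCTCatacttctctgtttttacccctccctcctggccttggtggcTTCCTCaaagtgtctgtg
Itgax: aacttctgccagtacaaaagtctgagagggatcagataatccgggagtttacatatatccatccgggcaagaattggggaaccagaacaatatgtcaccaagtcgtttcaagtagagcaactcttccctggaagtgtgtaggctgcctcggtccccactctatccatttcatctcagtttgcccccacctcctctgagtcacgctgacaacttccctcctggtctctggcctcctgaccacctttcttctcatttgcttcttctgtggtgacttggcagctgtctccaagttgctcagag
GAGGAA, searched on both strands, occurred 3 times in the Itgam window and not in that of Itgax, and 28.3% of 32851 promoters of the same length held it. TGTGGT, a core of the Runx element, occurred once in the Itgax window and in 16.8% of all promoters. These are matches of letters and were not tested as binding sites.

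Itga4, the α4 chain of VLA-4, through which monocytes bind VCAM-1, had 299, 350 and 254 CPM in the classical monocyte libraries, 48.3, 39.8 and 48.2 in those of early CMDMs, 83.4, 85.0 and 78.7 in those of late CMDMs and 195, 171 and 159 in those of resident-like macrophages. No ranges overlapped, and each step in the order classical, resident-like, late CMDM and early CMDM was called. From classical monocytes to early CMDMs the level fell 6.62-fold (log2 fold change -2.73 ± 0.13, edgeR adjusted p = 3.6e-10), and the estimate was -1.25 ± 0.17 on the leukocyte scale. By TMM it rose 1.81-fold from early to late CMDMs (0.86 ± 0.12, edgeR adjusted p = 6.5e-05), with -0.05 on the leukocyte scale. It was 2.12-fold higher in resident-like macrophages than in late CMDMs (1.08 ± 0.12, edgeR adjusted p = 7.5e-06), at 0.53 on the leukocyte scale.

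Itgb7, the β chain of α4β7 and αEβ7, had 97.5, 112 and 87.2 CPM in the classical monocyte libraries, 17.4, 14.8 and 22.5 in those of early CMDMs, 26.5, 20.4 and 23.2 in those of late CMDMs and 80.4, 53.4 and 74.1 in those of resident-like macrophages. It followed the order of Itga4, with the difference that the CMDM fractions overlapped and did not differ by the test (0.36, 95% interval -0.02 to 0.73, edgeR adjusted p = 0.14). On the leukocyte scale late CMDMs were called as lower than early CMDMs (-0.53, edgeR adjusted p = 0.013). The fall from classical monocytes to early CMDMs was 5.43-fold (-2.44 ± 0.18, edgeR adjusted p = 3.3e-08), and -0.99 ± 0.18 on the leukocyte scale. Classical monocytes also had the highest T cell and NK cell marker sums, given above for Itgal. The part of those cells in the Itga4 and Itgb7 levels was not tested. Resident-like macrophages held 2.97-fold more than late CMDMs (1.57 ± 0.17, edgeR adjusted p = 6.7e-06), at 1.02 on the leukocyte scale. The lower level of resident-like macrophages than of classical monocytes (-0.51 ± 0.16, edgeR adjusted p = 0.032) was not called when classical monocyte replicate 1 or 2 or resident-like replicate 2 or 3 was left out (-0.56 to -0.35), nor on the leukocyte scale (-0.50). The 6 basophil and mast cell markers (Mcpt8, Cpa3, Ms4a2, Kit, Mcpt4 and Tpsb2), cells that also express α4 and β7, summed to 69.8 to 134 CPM in resident-like macrophages and to 9.98 to 54.1 CPM elsewhere, and their part in the level was not tested.

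The promoters of Itga4 (GRCm38.p6, chr2:79255176-79255475, plus strand) and Itgb7 (chr15:102231886-102232185, minus strand), partner chains with a similar order of levels, are shown with the same capitals.
Itga4: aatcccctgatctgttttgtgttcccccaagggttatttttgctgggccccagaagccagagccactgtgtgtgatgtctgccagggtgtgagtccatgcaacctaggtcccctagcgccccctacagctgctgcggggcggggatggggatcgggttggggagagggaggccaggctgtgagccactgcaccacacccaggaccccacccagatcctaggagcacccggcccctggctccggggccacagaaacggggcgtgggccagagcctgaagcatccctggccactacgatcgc
Itgb7: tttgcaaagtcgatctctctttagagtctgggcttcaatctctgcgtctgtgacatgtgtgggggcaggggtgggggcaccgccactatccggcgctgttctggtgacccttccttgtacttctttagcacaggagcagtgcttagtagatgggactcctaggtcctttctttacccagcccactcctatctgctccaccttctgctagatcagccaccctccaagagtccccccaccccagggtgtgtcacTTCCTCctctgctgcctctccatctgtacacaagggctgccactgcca
GAGGAA occurred once in the Itgb7 window and not in that of Itga4, so that a shared match was not found, and TGTGGT occurred once in that of Itga4 and not in that of Itgb7.

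Itgae, the αE chain CD103 of epithelial T cells and some dendritic cells, was low outside classical monocytes. It was nearest to the detection limit of 3 counts in early CMDMs (7, 9 and 12 counts) and late CMDMs (13, 7 and 6), with 15, 32 and 22 counts in resident-like macrophages. Its values were 4.56, 7.92 and 4.57 CPM in the classical monocyte libraries, 0.433, 0.569 and 0.760 in those of early CMDMs, 1.03, 0.425 and 0.405 in those of late CMDMs and 0.809, 1.94 and 1.30 in those of resident-like macrophages. The level fell 9.60-fold from classical monocytes to early CMDMs (log2 fold change -3.26 ± 0.38, edgeR adjusted p = 3.1e-06), and the estimate was -1.82 ± 0.39 on the leukocyte scale. Classical monocytes were also the fraction with the most T cell and NK cell marker RNA, given above, and the part of those cells in the Itgae level was not tested. Among the other 3 fractions, the difference between resident-like macrophages and late CMDMs missed the threshold (log2 fold change 1.15, edgeR adjusted p = 0.068), but was called with no expression filter and without classical monocyte replicate 2, late CMDM replicate 1 or resident-like replicate 1 (1.15 to 1.67). The ranges of resident-like macrophages and late CMDMs overlapped, and their difference was not called on the leukocyte scale (0.60, edgeR adjusted p = 0.25). Resident-like macrophages were called as higher than early CMDMs (log2 fold change 1.18, edgeR adjusted p = 0.038). This was not called without early CMDM replicate 1 or 2 or resident-like replicate 2 or 3 (0.83 to 1.20), and was -0.23 on the leukocyte scale.

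Itgb1, the widely expressed β1 chain, had 164, 178 and 184 CPM in the classical monocyte libraries, 189, 181 and 190 in those of early CMDMs, 242, 255 and 261 in those of late CMDMs and 220, 232 and 224 in those of resident-like macrophages. Late CMDMs had the highest mean by TMM, but resident-like macrophages did not differ from them by the test (-0.17, 95% interval -0.35 to 0.02, edgeR adjusted p = 0.17). On the leukocyte scale resident-like macrophages were called as lower than late CMDMs (-0.72). Classical monocytes and early CMDMs overlapped. From classical monocytes to early CMDMs the level did not differ by TMM (0.09, 95% interval -0.09 to 0.28, edgeR adjusted p = 0.40), while it rose by 1.59 ± 0.17 on the leukocyte scale. Late CMDMs held 1.35-fold more than early CMDMs by TMM (0.44 ± 0.09, edgeR adjusted p = 0.00097), with -0.49 on the leukocyte scale, and 1.44-fold more than classical monocytes (0.53 ± 0.09, edgeR adjusted p = 0.00015), with 1.10 on it. The higher level in resident-like macrophages than in early CMDMs by TMM (edgeR adjusted p = 0.017) was not called without early CMDM replicate 2 (0.24) or resident-like replicate 2 (0.25) and was -1.20 on the leukocyte scale. Resident-like macrophages were also higher than classical monocytes (0.36 ± 0.09, edgeR adjusted p = 0.0051), a difference not called with library size alone (0.19) or on the leukocyte scale (0.38).

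Itga5, the α5 chain of the fibronectin receptor, had 158, 184 and 226 CPM in the classical monocyte libraries, 89.9, 71.0 and 107 in those of early CMDMs, 137, 128 and 129 in those of late CMDMs and 198, 156 and 179 in those of resident-like macrophages. Classical monocytes and resident-like macrophages overlapped, and late and early CMDMs lay below them in that order. By TMM the level fell 2.12-fold from classical monocytes to early CMDMs (-1.08 ± 0.15, edgeR adjusted p = 2.2e-05), and it was 0.38 ± 0.16, called in the opposite direction, on the leukocyte scale. From early to late CMDMs it rose by 0.56 ± 0.15 by TMM (edgeR adjusted p = 0.0095), a call lost without early CMDM replicate 2 (0.41) and with an estimate of -0.33 on the leukocyte scale. The higher level in resident-like macrophages than in late CMDMs by TMM (0.44, edgeR adjusted p = 0.037) was not called without early CMDM replicate 1, any late CMDM library, or resident-like replicate 1 or 3 (0.35 to 0.47), and was -0.11 on the leukocyte scale. The lower level of late CMDMs than of classical monocytes by TMM (-0.53, edgeR adjusted p = 0.011) was not called without classical monocyte replicate 3 (-0.38) and was 0.049 on the leukocyte scale. Across the libraries, 6 fibroblast markers (Col1a1, Col1a2, Col3a1, Pdgfra, Dcn and Lum) summed to 2988 to 5588 CPM in classical monocytes and early CMDMs and to 276 to 499 CPM in the Ly6Clo fractions. Fibroblasts also express Itgb1 and Itga5, and keratinocytes express Itgb1, with keratinocyte marker sums of 17100 to 27280 CPM in early CMDMs and 1871 to 4050 CPM elsewhere. The part of these CD45-negative cells in the levels, and in the ratios to Itgb1, was not tested.

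Itga6, the laminin-binding α6 chain, was highest in early CMDMs, by TMM alone among the 10 genes; on the leukocyte scale Itgb1 and Itga5 were also highest there. It had 32.6, 50.9 and 33.6 CPM in the classical monocyte libraries, 225, 229 and 181 in those of early CMDMs, 58.9, 80.8 and 68.1 in those of late CMDMs and 31.9, 33.6 and 34.2 in those of resident-like macrophages. No early CMDM library overlapped with another fraction, late CMDMs came next, and classical monocytes and resident-like macrophages overlapped. The level rose 5.41-fold from classical monocytes to early CMDMs (log2 fold change 2.44 ± 0.16, edgeR adjusted p = 1.5e-08) and by 3.96 ± 0.25 on the leukocyte scale. It fell 3.05-fold from early to late CMDMs (-1.61 ± 0.16, edgeR adjusted p = 1.9e-06), and the estimate was -2.55 ± 0.24 on the leukocyte scale. In the same libraries the 6 keratinocyte markers (Krt5, Krt14, Krt1, Krt10, Krt15 and Dsp) summed to 17100 to 27280 CPM in early CMDMs and to 1871 to 4050 CPM elsewhere, and all 6 were called as higher in early CMDMs than in each other fraction. Endothelial markers (Cdh5, Kdr, Tie1, Vwf, Esam and Egfl7) summed to 60.8 to 69.3 CPM in early CMDMs and to 23.1 to 56.7 CPM elsewhere. Against classical monocytes, 5 of these 6 were called as higher in early CMDMs and Kdr as lower (6.36 ± 1.07 against 11.9 ± 5.36 CPM). Late CMDMs were called as lower than early CMDMs for 3 of the 6, as were resident-like macrophages, and the other 3 were not called in either comparison. Late CMDMs held 1.78-fold more Itga6 than classical monocytes (0.83 ± 0.16, edgeR adjusted p = 0.00074), and 1.41 on the leukocyte scale. The keratinocyte sums were 3106 to 3647 CPM and 1871 to 4050 CPM in these fractions, which overlapped, and 2 of the 6 markers were called as higher in late CMDMs. The part of keratinocytes and endothelial cells in the Itga6 level was not tested.

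**Figure D3:**
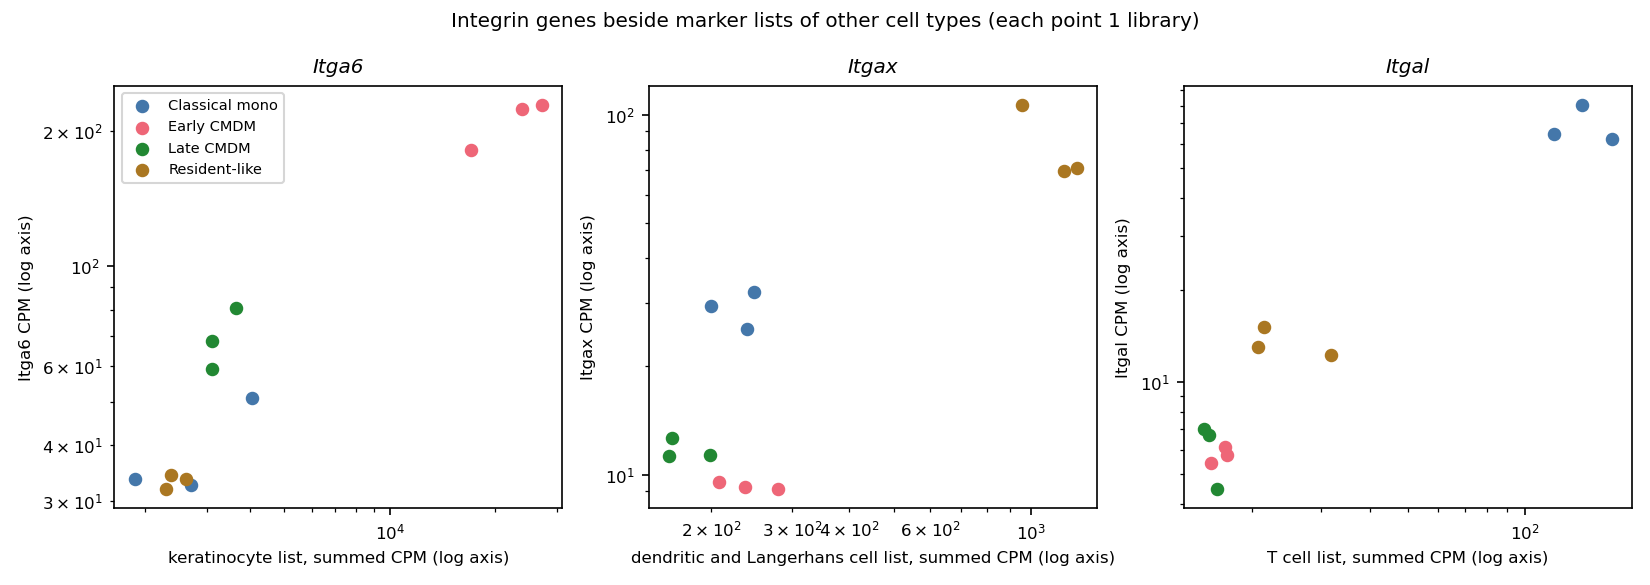
CPM of Itga6, Itgax and Itgal (vertical, log axis) against the summed CPM of keratinocyte, dendritic and Langerhans cell, and T cell markers (horizontal, log axis) in the 12 libraries. The early CMDM libraries lie at 17100 CPM or more of keratinocyte markers with the most Itga6, the resident-like libraries lie at 953 CPM or more of dendritic cell markers with the most Itgax, and the classical monocyte libraries have the most T cell marker RNA and the most Itgal.

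Ratios of subunit counts within a library do not depend on scaling, and 9 of them were compared over the 12 libraries with an exact permutation test of the 4 fractions, adjusted over the 9 ratios. The Itga4/Itgb1 ratio was highest in classical monocytes, at a mean log2 ratio of 0.77, and lowest in early CMDMs, at -2.04 (permutation p = 6.49e-05, the smallest these permutations can give, adjusted p = 0.000584). The Itgb7/Itgb1 ratio was -0.83 in classical monocytes and -3.38 in early CMDMs (overall adjusted permutation p = 0.000935), and the Itga6/Itgb1 ratio was 2.36 higher in early CMDMs than in classical monocytes (overall adjusted permutation p = 0.000779). The Itgal/Itgb2 ratio was -2.03 in classical monocytes and -4.48 in late CMDMs (adjusted permutation p = 0.00224). In contrast, Itgam/Itgb2 was lowest in classical monocytes, at -0.79, and highest in late CMDMs, at 0.15 (adjusted permutation p = 0.000935). Itgax/Itgb2 was between -3.50 and -3.17 in the other fractions and -1.50 in resident-like macrophages, with no overlap (adjusted permutation p = 0.00609). Itga5/Itgb1 differed as well (adjusted permutation p = 0.000779). Itga4/Itgb7 (adjusted permutation p = 0.0595) and Itgae/Itgb7 (adjusted permutation p = 0.0603) missed the threshold, which does not show that these ratios were equal. Without resident-like replicate 2 both passed it (adjusted permutation p = 0.00844 and 0.00621), and without late CMDM replicate 1 Itgae/Itgb7 did (0.0413).

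**Figure D4:**
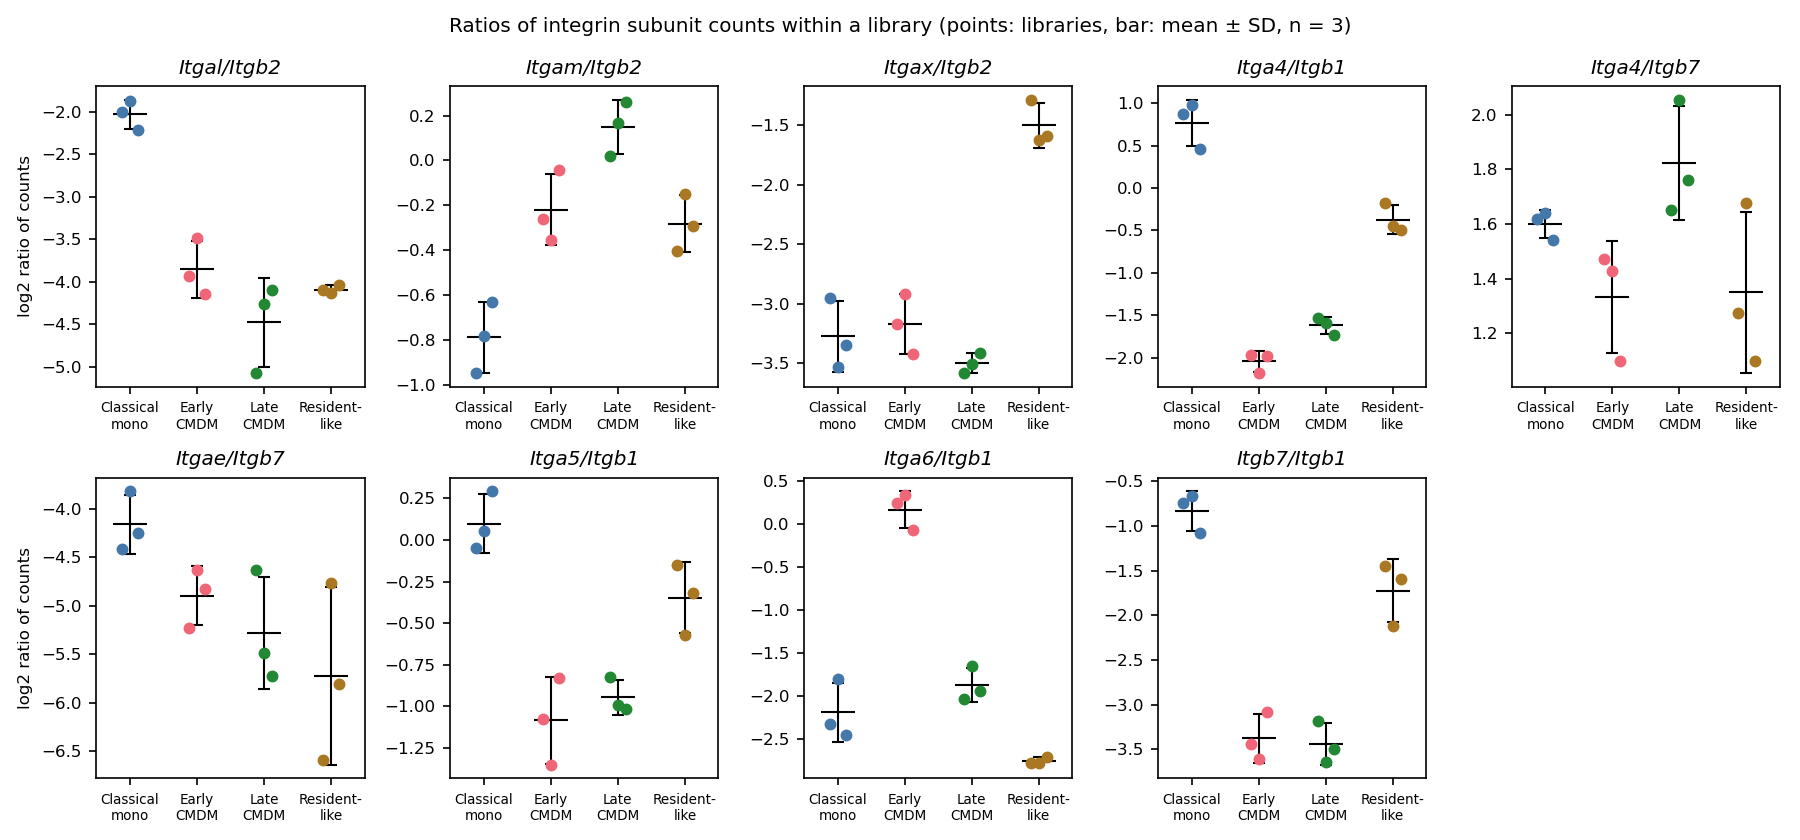
Log2 ratio of the counts of pairs of subunits (vertical axes) in each library of 4 fractions, with points for libraries and bars for the mean ± SD of 3. These ratios are the same on every scale, and Itga4/Itgb1 and Itgb7/Itgb1 lie lowest in both CMDM fractions, Itga6/Itgb1 highest in early CMDMs and Itgax/Itgb2 highest in resident-like macrophages.

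Levels of different genes were compared per kilobase of the longest annotated transcript, as a description. Among the α chains of β2, Itgam made up 62.9 ± 4.84% of the summed CPM per kilobase in classical monocytes and 64.0 ± 4.59% in resident-like macrophages, and 81.6 ± 4.43% and 88.6 ± 0.537% in early and late CMDMs. Itgal made up 23.97 ± 3.25% in classical monocytes and at most 7.85% in any library of the other fractions. Itgax made up 31.9 ± 4.53% in resident-like macrophages and at most 16.8% in any other library. The highest level per kilobase of the 10 genes was that of Itgb2 in classical monocytes (94.7 ± 9.36 CPM per kilobase) and resident-like macrophages (77.4 ± 8.58), that of Itgb1 in late CMDMs (66.3 ± 2.60), and Itga6 (49.1 ± 6.08) and Itgb1 (49.0 ± 1.35) did not differ beyond their spread in early CMDMs. Whether the reads covered whole transcripts or their ends is not given in the sources used here, and this order changed with the median transcript length. With that length Itgb7 came first in classical monocytes (220.3 CPM per kilobase) and resident-like macrophages (154.4). Itgb2 then lay behind Itga4 (130.1) as well in classical monocytes, and behind Itgb1 (124.6) as well in resident-like macrophages. The median transcript of Itgb7 has 449 bases and its longest 2683. With the median length the share of Itgax was 62.2% in resident-like macrophages and 23.5% to 34.3% in the other fractions.

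Among 17 other integrin subunits, 16 were tested, and 7 rose and 5 fell by TMM in early CMDMs against classical monocytes, where 24.2% of all genes rose and 20.6% fell. There were 11 that rose and 1 that fell on the leukocyte scale, against 86.9% and 2.68% of all genes. Itgb4, the partner of α6 in keratinocyte hemidesmosomes, rose (log2 fold change 2.82 ± 0.25, edgeR adjusted p = 5.5e-07), from 13.4 ± 6.48 CPM to 94.6 ± 10.4 CPM. Itga3, another laminin-binding chain of keratinocytes, rose as well (2.23 ± 0.23), and both rose on the leukocyte scale, in the fraction with the highest keratinocyte marker sum. Itgad, the αD chain and the neighbour of Itgax, fell (-2.12 ± 0.32) to 8, 8 and 9 counts, a call that was lost on the leukocyte scale (-0.68). Itgb3, the β3 chain, fell from 64.9 ± 6.73 CPM to 15.5 ± 0.362 CPM (-2.06 ± 0.13, edgeR adjusted p = 7.1e-09), on the leukocyte scale too. In resident-like macrophages against late CMDMs, 3 of the 16 were higher and 8 lower by TMM, against 12.7% and 15.4% of all genes, and 3 were higher and 9 lower on the leukocyte scale, against 3.02% and 44.9%. Itgad was 4.39 ± 0.595 CPM and 0.435 ± 0.269 CPM in these fractions (3.38 ± 0.32, edgeR adjusted p = 1.5e-06). Itgb8, Itga11 and Itga9 were lower (log2 fold changes of -2.45 ± 0.33, -1.84 ± 0.48 and -1.58 ± 0.24), and all 4 genes were called in the same direction on the leukocyte scale. Itgad had only 9, 3 and 6 counts in late CMDMs and Itga11 only 5, 6 and 6 in resident-like macrophages, close to the detection limit of 3 counts. Itgax shared 8.02% of its 50-base windows with other genes, mainly Itgad, so that reads may have been split between them.

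Of 15 genes of integrin ligands, 14 were tested, and 5 rose and 3 fell by TMM in early CMDMs against classical monocytes, beside 24.2% and 20.6% of all genes. Scaled to the leukocyte genes, 13 rose and none fell, beside 86.9% and 2.68% of all genes. Those with the largest changes were Lama3 (2.81 ± 0.23) and Lama5 (2.75 ± 0.27), which encode laminin chains of epithelial basement membrane, F11r (2.39 ± 0.15), a junctional ligand of LFA-1, and Cdh1 (2.29 ± 0.18), the E-cadherin ligand of αEβ7. All 4 rose on the leukocyte scale as well, and all 4 fell from early to late CMDMs on both scales. In that comparison 1 of 14 rose and 6 fell by TMM, beside 14.4% and 17.5% of all genes, and none rose and 10 fell on the leukocyte scale, beside 0.796% and 70%.

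Of 19 genes that activate integrins or link them to actin, 3 rose and 14 fell in early CMDMs against classical monocytes by TMM, while 13 rose and 3 fell on the leukocyte scale. The shares of all genes were 24.2% and 20.6% by TMM and 86.9% and 2.68% on the leukocyte scale. Fermt1, the kindlin of epithelial cells, rose (2.60 ± 0.21), whereas the leukocyte adaptor Fyb (-2.14 ± 0.14), the Rap1 activator Rasgrp2 (-2.12 ± 0.14) and the parvin Parvg (-2.12 ± 0.17) fell, all in the same direction on both scales. From early to late CMDMs 13 of the 19 rose and 1 fell by TMM, while none rose and 12 fell on the leukocyte scale, beside 14.4% and 17.5% of all genes by TMM and 0.796% and 70% on the leukocyte scale. Of 5 inactivators, 4 fell by TMM in early CMDMs against classical monocytes, of which Cytip, a regulator of β2 integrin adhesion, also fell on the leukocyte scale, where the other 4 rose. Classical monocytes held 892 CPM of it and resident-like macrophages 638 CPM, against 133 CPM for early and 125 CPM for late CMDMs. Among 10 kinases and signalling adaptors, 1 rose and 7 fell by TMM in early CMDMs, with 4 and 3 on the leukocyte scale, beside the same shares of all genes as given above for early CMDMs (24.2% and 20.6%, and 86.9% and 2.68%). The Src-family kinases Fgr (-2.62 ± 0.16) and Lyn (-2.19 ± 0.14) and the kinase Syk (-1.83 ± 0.16) fell on both scales. In resident-like macrophages Ptk2b, the adhesion kinase Pyk2, was higher than in late CMDMs on both scales (2.14 ± 0.09, edgeR adjusted p = 3.9e-10).

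The genes most like the 4 members with the widest range were found by Pearson's r of log2 CPM over the 12 libraries, among 12757 genes of at least 5 CPM, as a description of points that share their fractions and libraries. Most like Itgal were Btla (r = 0.984), an inhibitory receptor of lymphocytes and dendritic cells, Gpr171 (r = 0.981) and Serpinb6b (r = 0.980). Itgax was most like Nr4a3 (r = 0.987), a nuclear receptor gene, and H2-DMb2 and H2-DMb1 (r = 0.986 each), chains of the peptide loader of MHC class II. Those most like Itgae were Fpr2 (r = 0.978), Sra1 (r = 0.971) and Ifitm6 (r = 0.964). For Itga4 they were Ptprc (r = 0.997), the CD45 phosphatase of leukocytes and a gene of the leukocyte scale, Samsn1 (r = 0.994) and Plekhm3 (r = 0.993).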

How the data were processed

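The deposited values are read counts per gene symbol without normalization. The authors trimmed reads with cutadapt 4.1, mapped them with Bowtie2 2.4.5 to reference RNA of GRCm38 on 1 strand, and summed the counts of transcripts by gene symbol, so reads of near-identical transcripts could be split. The study normalized and tested with TCC, for which edgeR was used here. With edgeR 4.0.16 in R 4.3.3, the 12 libraries were filtered by filterByExpr (by fraction), TMM-normalized and fitted together with the robust quasi-likelihood method, with Benjamini-Hochberg adjustment over 22118 genes and a threshold of 0.05. The biological coefficient of variation was 13.2%. Standard errors come from the fold change and the F statistic. Ratios used counts plus 0.5 and likeness a prior count of 2. The code was tested on simulated data. Total counts were 12537178 to 19844113 per library. The chi-square between replicates, per degree of freedom, lay between 4.24 and 21.9, and none was treated as a duplicate. The pan-leukocyte genes were Ptprc, Coro1a, Laptm5, Cd53, Lcp1, Ptpn6, Arhgdib, Rac2, Spi1, Dock2, Arpc1b and Cyba. The members and lists were chosen with earlier results of these data known. Named were the 10 genes and, in each other list, at most 4 called genes with the largest changes in a comparison. For Itgal, Itgax, Itgae and Itga4, the 3 most similar genes were named. Positions come from GENCODE M21 and promoters from RefSeq. Alternatives were RLE factors, library size only, DEGES (TMM without called genes, 3 rounds), the pan-leukocyte scaling, DESeq2 1.42.0, no filter, 10 counts in every library, the 6 libraries of a comparison alone, leaving out genes over 1% of counts, a replicate block, the median transcript length and leaving out each library. Adding Gm49368 to Itgam and the Itgax share with the median transcript length were chosen after seeing the data. A gene of the kinase list and a gene of the Mo-Mac marker list are not reported here, and both lists were counted without them.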

Additional observations from a re-analysis of the deposited data

How the results depend on the processing

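Of 60 log2 fold changes (10 genes in 6 comparisons), all 60 kept direction and side of the threshold with DESeq2, RLE factors and without genes over 1% of counts, as did 54 of 54 with 10 counts in every library, 58 of 60 without a filter, 57 of 59 with the 6 libraries of a comparison alone, 56 with DEGES and 54 with library size only. With the pan-leukocyte scaling 32 did so and 20 reversed, and the count of the 10 genes called in resident-like macrophages against early CMDMs became 6. The reversed log2 fold changes were, in early CMDMs against classical monocytes, 0.38 for Itga5 and 0.29 for Itgam; in late CMDMs against classical monocytes, 0.049 and 0.42. From early to late CMDMs they were -0.046 (Itga4), -0.33 (Itga5), -0.84 (Itgae), -0.84 (Itgal), -0.58 (Itgax), -0.49 (Itgb1), -0.23 (Itgb2) and -0.53 (Itgb7). In resident-like macrophages they were -0.44 (Itga5), -0.23 (Itgae), -0.25 (Itgal), -0.069 (Itgam), -1.20 (Itgb1) and -0.0020 (Itgb2) against early CMDMs, and -0.11 (Itga5) and -0.20 (Itgam) against late CMDMs. With DEGES, Itgae from early to late CMDMs was -0.013. Per kilobase of the median transcript length, chosen after seeing the data, the Itgax share was higher in every fraction, as given above. The pan-leukocyte scaling differs by construction in taking its factors from 12 genes; the cause of each change was not tested.

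With each library left out in turn, 691 of 720 values kept direction and side. Those that reversed were not called: Itga5 (-0.19 to 0.059) and Itga6 (-0.33 to 0.0065) in resident-like macrophages against classical monocytes, and Itgae (-0.49 to 0.25) and Itgal (-0.037 to 0.24) from early to late CMDMs. The adjusted permutation p of Itga4/Itgb7 ranged from 0.00844 to 0.161 and that of Itgae/Itgb7 from 0.00621 to 0.163, both lowest without resident-like replicate 2. Same-numbered libraries of different fractions had correlated deviations of -0.10 to 0.25, with 4 of 18 pairs over 0.1, so the numbers were not treated as a pairing. In 9 of 12 libraries the best correlation was with the own number, which is a hint of pairing in the data that the labels do not give. With a replicate block, 59 of 60 calls were the same, Itgae in resident-like macrophages against late CMDMs became called (1.14), and the adjusted permutation p of Itga4/Itgb7 was 0.0357. Per kilobase of the median transcript length, with which Itgb7 and not Itgb2 was first in classical monocytes and resident-like macrophages, Itgb2 was 116.6 CPM in classical monocytes and 95.3 in resident-like macrophages, Itgb1 was 103 in early and 139.8 in late CMDMs, and Itga6 was 99.2 in early CMDMs. Itgae was low outside classical monocytes and nearest to the detection limit in the CMDM fractions, and the sources give no animals per library.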
